A study of Mus musculus with 18 samples.

Results

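The 4 Hox clusters of the mouse were examined as chromatin that opens or closes when muscle precursor cells differentiate with or without MyoD. A peak belonged to a cluster when its summit fell in 1 of 4 fixed mm9 intervals. HoxA was taken as chr6:52090000-52230000, HoxB as chr11:96030000-96250000, HoxC as chr15:102730000-102890000 and HoxD as chr2:74480000-74620000, which make 660 kb in all. These intervals held 391 of the 400115 peaks in 4 lists, or 0.0977%. After overlapping peaks of all lists were joined, they held 129 of 141979 regions, or 0.0909%. The 38 member genes run from Hoxa2 to Hoxd13, with 10 in HoxA, 10 in HoxB, 9 in HoxC and 9 in HoxD.

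Hox genes encode homeodomain transcription factors that give cells their position along the body axis and the limb. Within a cluster the genes lie in a row, and their order matches the order in which they are used from anterior to posterior and from early to late. Polycomb and trithorax proteins and CTCF-bound boundaries are known to hold stretches of a cluster silent or active. Cells of adult limb muscle are known to keep a Hox pattern that reflects where they came from. MyoD is the bHLH factor that commits cells to muscle, and it binds short E-box motifs.

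ATAC-seq, which marks open DNA by where a transposase can cut and tag it, was done on skeletal muscle myoblasts and on myocytes after 24 h of myogenic differentiation, each from wild-type and MyoD-null mice. There were 12 ATAC samples, 3 for each group, and 1 peak list for each group of 3. In the submitters' sample titles the myoblasts carry the tag GM, the myocytes DM and the MyoD-null samples MKO. The number of mice, and whether each sample was a separate culture, is not stated. The 6 RNA-seq samples of C2C12 cells, a mouse myoblast line, with and without CTCF knockdown were not analysed here, so no Hox transcript level stands beside the peaks and the cell labels could not be checked against marker genes. The peaks of each list were called on merged samples. There is therefore no spread between replicates and no test, and all values below describe 4 lists.

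The genotype of the myocyte lists is in doubt. In the list deposited under the wild-type myocyte samples every peak name carries MKO, and in the list deposited under the MyoD-null samples every peak name carries WT. They are called here the myocytes filed as wild type and the myocytes filed as MyoD-null, after the samples they were deposited under. What differs between the 2 myocyte lists can be read in either direction, and what both myocyte lists share does not depend on the genotype. The myocyte peak names also carry a prefix that the myoblast names lack, so that the stage of the cells and a difference in handling cannot be told apart. Nor can a site open in few cells be told apart from one partly open in many.

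The whole lists held 98097 peaks in wild-type myoblasts, 101755 in MyoD-null myoblasts, 112030 in the myocytes filed as wild type and 88233 in the myocytes filed as MyoD-null. The genome-wide background, recovered from the fold enrichments and p-values, was 8.18 and 8.54 reads in the myoblast lists and 5.29 and 6.34 reads in the myocyte lists, in the same order. The median peak held 45 to 47 reads at its summit in each of them. With the lower background, the fewest reads at any listed summit were 15 and 17 in the myocytes and 20 and 21 in the myoblasts. Where the local background is high, as in parts of HoxA and HoxC, a summit needs more reads to be listed. A site missing from a list may have been open below what that list could detect.

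No genome of the mm9 build was used here, so the peaks are given by position and were not assigned to single genes. RefSeq's GRCm38.p6 table gives the order of the members along rising coordinates. HoxA runs from Hoxa2 to Hoxa13, whereas HoxB runs from Hoxb13 to Hoxb1, HoxC from Hoxc13 to Hoxc4 and HoxD from Hoxd13 to Hoxd1. The low-coordinate end of HoxA is therefore its anterior end, and that of the other clusters is their posterior end.

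The promoters of members show the sequence on which a factor such as MyoD could act. RefSeq's promoter table (GRCm38.p6) matched 22 of the 38 members, with 24 promoters. No promoter was matched for Hoxa4, Hoxb2, Hoxb3, Hoxb5, Hoxb6, Hoxb7, Hoxb9, Hoxb13, Hoxc5, Hoxc6, Hoxc8, Hoxc9, Hoxc10, Hoxc11, Hoxc12 and Hoxc13. The E-box form CAGCTG, which reads the same on both strands, was searched in the 250 bases before each start site. It stood in 3 of the 24 member promoters, those of Hoxa3, Hoxa5 and Hoxa6, and in 4271 of all 32851 promoters in the table, which is near the same share. The form CACCTG or its reverse complement CAGGTG stood in 0 of the 24 and in 17.2% of all. The 3 promoters with CAGCTG are printed 5′ to 3′ toward the start site, with the E-box in capitals.
Hoxa3: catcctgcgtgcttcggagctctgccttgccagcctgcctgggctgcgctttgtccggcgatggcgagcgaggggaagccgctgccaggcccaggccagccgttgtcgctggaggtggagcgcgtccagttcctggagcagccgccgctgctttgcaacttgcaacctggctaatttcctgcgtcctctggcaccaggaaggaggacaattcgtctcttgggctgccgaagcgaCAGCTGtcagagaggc
Hoxa5: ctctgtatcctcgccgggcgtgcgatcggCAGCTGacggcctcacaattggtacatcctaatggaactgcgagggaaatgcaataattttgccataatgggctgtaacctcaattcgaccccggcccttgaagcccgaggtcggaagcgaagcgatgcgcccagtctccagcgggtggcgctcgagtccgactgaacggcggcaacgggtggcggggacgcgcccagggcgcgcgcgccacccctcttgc
Hoxa6: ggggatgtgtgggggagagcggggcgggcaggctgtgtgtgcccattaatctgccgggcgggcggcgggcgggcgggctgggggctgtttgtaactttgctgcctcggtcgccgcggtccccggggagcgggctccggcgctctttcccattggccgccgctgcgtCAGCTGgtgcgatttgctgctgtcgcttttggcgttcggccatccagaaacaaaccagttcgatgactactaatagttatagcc

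All 3 lie on the minus strand of chromosome 6, at chr6:52213068-52213317 for Hoxa3, chr6:52204588-52204837 for Hoxa5 and chr6:52208673-52208922 for Hoxa6. These coordinates are of GRCm38.p6, whereas those of the peaks are of mm9, and no peak was placed on these promoters. Counted back from the start site, the E-box of Hoxa3 spans bases -16 to -11, that of Hoxa5 -221 to -216 and that of Hoxa6 -84 to -79. The Hoxa3 start listed here lies at a higher coordinate than those of Hoxa5 and Hoxa6, so this promoter is the far start site of Hoxa3. A match describes these letters and is not evidence of binding.

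Member promoters were rich in G and C. Their median GC content was 58.6%, against 52.4% over all promoters. The ratio of observed to expected CpG had a median of 0.721 against 0.373, and it was at least 0.6 in 13 of 24 member promoters (54.2%) against 34.0% of all. The members varied widely around this. Hoxa13, which shapes the distal limb, had the highest GC content at 80.0%, followed by its paralogue Hoxd13 at 74.4%. The lowest was in Hoxd4, with 40.4% and a CpG ratio of 0.294. Hoxa5, with 63.6% GC, had the highest CpG ratio of the 24, 1.11.

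Peaks lay much closer together in the Hox intervals than in the genome at large. Wild-type myoblasts had 104 Hox peaks, MyoD-null myoblasts 109, the myocytes filed as wild type 86 and the myocytes filed as MyoD-null 92. Per Mb this made 158, 165, 130 and 139 peaks, where the whole lists had 37.1, 38.5, 42.4 and 33.4. The covered length stayed within 49.4 to 53.1 kb in the 4 lists, or 7.49% to 8.05% of the intervals, while whole lists covered 1.94% to 2.56% of the genome. The 2 myocyte lists thus had fewer Hox peaks than the 2 myoblast lists on nearly the same covered length, and the median Hox peak was 512 and 471.5 bp wide in the myocytes against 393.5 and 363 bp in the myoblasts. Over the whole lists the median width was 498 and 483 bp in the myocytes and 421 and 398 bp in the myoblasts.

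**Figure D1:**
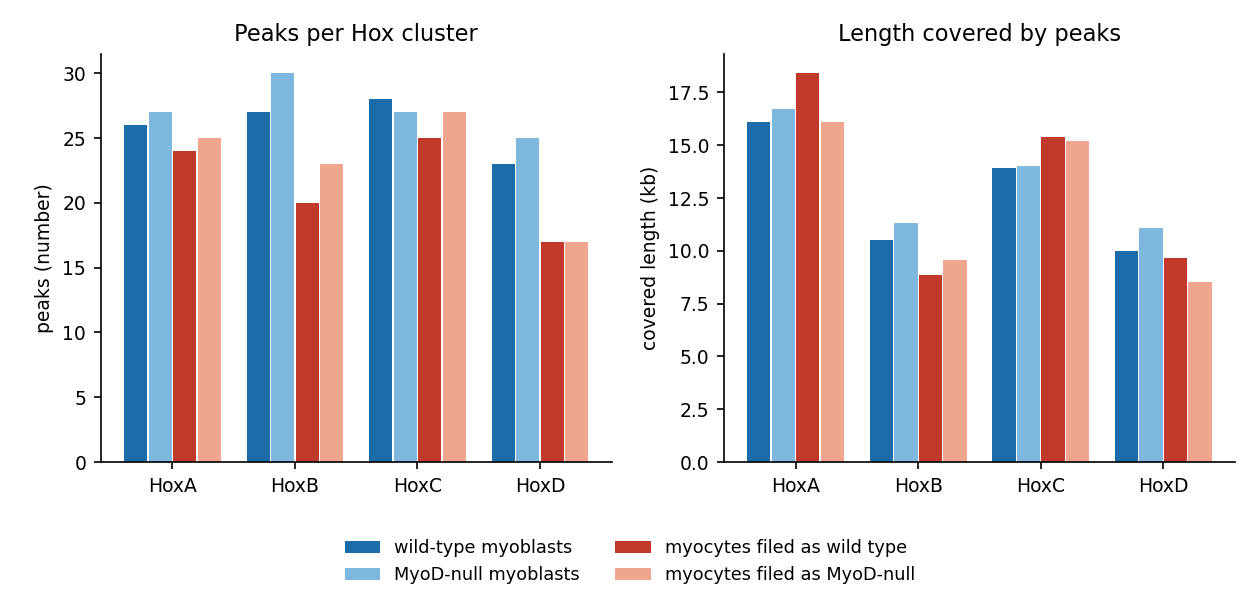
Number of peaks (left, vertical axis in peaks) and length they cover (right, in kb) in each Hox cluster, 1 bar for each of the 4 lists. HoxB and HoxD have fewer peaks in both myocyte lists than in both myoblast lists, and HoxA and HoxC cover the most length.

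The list lengths bear on this difference. For each 100000 peaks in the list, the Hox intervals held 106 in wild-type myoblasts, 107 in MyoD-null myoblasts, 76.8 in the myocytes filed as wild type and 104 in the myocytes filed as MyoD-null. With every list shortened to its 88233 strongest peaks by p-value, these became 99.7, 99.7, 81.6 and 104. The myocytes filed as wild type, the longest list, were then still the lowest, but those filed as MyoD-null were no longer below the myoblasts. Peaks with at least 5-fold enrichment numbered 7 in wild-type myoblasts, 11 in MyoD-null myoblasts, 30 in the myocytes filed as wild type and 11 in those filed as MyoD-null. For each 100000 peaks past that limit this made 29.1, 44.5, 57.1 and 31.3, so the list filed as wild type went from the lowest to the highest. The limit is not neutral, since folds are higher over the whole of both myocyte lists.

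HoxA, the cluster with the most open length, held 26 peaks in wild-type myoblasts, 27 in MyoD-null myoblasts, 24 in the myocytes filed as wild type and 25 in those filed as MyoD-null. These covered 16.1, 16.7, 18.4 and 16.1 kb, or 11.5% to 13.2% of the interval. Its count hardly moved between lists. Of the 18876 windows of 140 kb along the genome, 0.154%, 0.217%, 1.66% and 0.291% held as many peaks in the 4 lists, and 0.0424% to 0.313% were covered over as much length. HoxA was thus among the densest stretches in each list, and its flanks of the same length held 3 to 12 peaks.

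HoxC, whose posterior genes mark the hindlimb, held 28, 27, 25 and 27 peaks in the same order of lists, over 13.9, 14.0, 15.4 and 15.2 kb. Between 0.285% and 2.74% of 160 kb windows held as many. HoxC continued into a dense neighbourhood, with 28 to 31 peaks in the 160 kb above its interval and 11 to 14 in the 160 kb below.

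HoxB held 27 and 30 peaks in the myoblast lists but 20 and 23 in the myocyte lists, a difference of 7 in both genotypes as deposited. Its covered length was 10.5 and 11.3 kb in the myoblasts and 8.86 and 9.57 kb in the myocytes. It is the longest interval and the least dense, and 2.61% to 17.2% of 220 kb windows held as many peaks. With each interval divided into 5 equal segments, numbered from the low coordinate, most HoxB peaks lay in segments 3 and 4, which held 11 and 7 of the 27 in wild-type myoblasts. Segments 1 and 2, on the Hoxb13 side, held 3 and 4 peaks in both myoblast lists. They held 1 and 3 in the myocytes filed as wild type and 1 and 2 in those filed as MyoD-null. The longest stretch without a peak there was chr11:96055682-96093717 in the first and chr11:96055576-96096294, or 40.7 kb, in the second. With lists of equal length HoxB held 23, 22, 17 and 23 peaks, so that only the myocytes filed as wild type stayed lower. The 220 kb below HoxB held 16 or 17 peaks and the 220 kb above it 6 to 9, where the median window held 4 to 6, so its low-coordinate side was dense too.

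HoxD held 23 and 25 peaks in the myoblast lists and 17 in each myocyte list. It covered 10.0 and 11.1 kb in the myoblasts and 9.65 and 8.54 kb in the myocytes. With lists of equal length the counts were 18, 20, 13 and 17. HoxD stood out from its surroundings more than the others, as the 140 kb below it held 1 or 2 peaks and the 140 kb above it 4 to 6 in each list. A stretch near its middle, chr2:74554407-74574194 in wild-type myoblasts, had no peak over 19.8 kb. The gap was 24.1 kb in MyoD-null myoblasts and 24.0 kb in the myocytes filed as wild type. In the myocytes filed as MyoD-null a peak at chr2:74565361-74565583 broke this stretch. Their longest gap, 18.7 kb, was at the high-coordinate end.

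**Figure D2:**
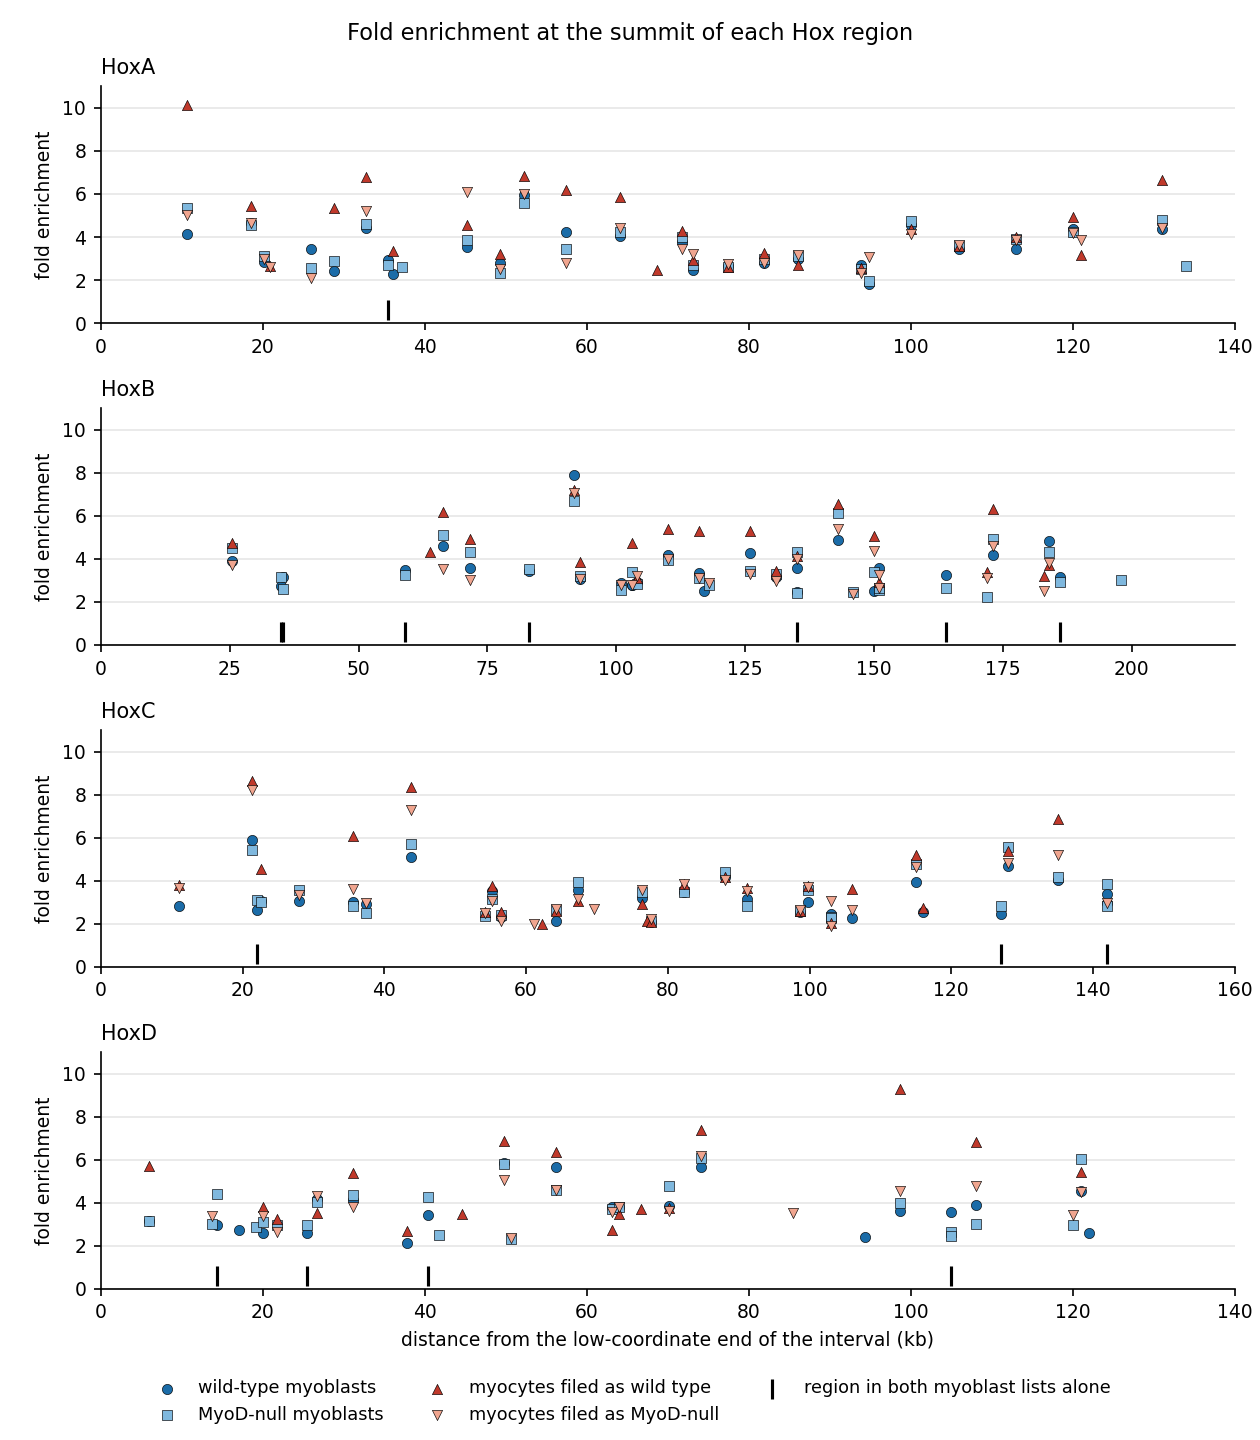
Fold enrichment over local background (vertical axis, no unit) of each Hox region in each list that holds it, against its distance in kb from the low-coordinate end of the interval, with black ticks for the 15 regions found in both myoblast lists alone. Most regions lie between 2 and 6, and the 2 highest points, 10.13 in HoxA and 9.30 in HoxD, are from the myocytes filed as wild type.

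Hox peaks were numerous but weak in fold. The fold enrichment, the authors' value for each peak, divides the reads at the summit by the local background, with a small constant added to each. Its median over Hox peaks was 3.24 in wild-type myoblasts, 3.14 in MyoD-null myoblasts, 3.84 in the myocytes filed as wild type and 3.50 in those filed as MyoD-null, where the whole lists had 3.75, 3.73, 4.80 and 4.42. Only 32.7%, 35.8%, 37.2% and 21.7% of Hox peaks reached the median of their own list. The reads at the summit did not show this deficit. In units of the genome-wide background the median Hox summit stood at 5.44, 5.74, 10.0 and 7.26, against 5.50, 5.50, 8.51 and 7.26 over the whole lists.

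The lower fold came with a higher local background, since the fold sets the summit reads against that background. The median local background under Hox peaks was 1.57, 1.58, 2.07 and 1.81 times the genome-wide background, against 1.26, 1.29, 1.42 and 1.38 over whole lists. The excess was unequal between clusters. HoxA had 1.85, 1.92, 2.73 and 2.60, and HoxC had 1.87, 1.89, 3.55 and 3.00, so in both clusters the 2 myocyte lists were above the 2 myoblast lists. HoxB had 1.56, 1.46, 1.52 and 1.5, which is close in all lists. HoxD had 1.41, 1.39, 1.73 and 1.33. The highest value at any Hox peak was 7.45, in HoxA in the myocytes filed as wild type.

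**Figure D3:**
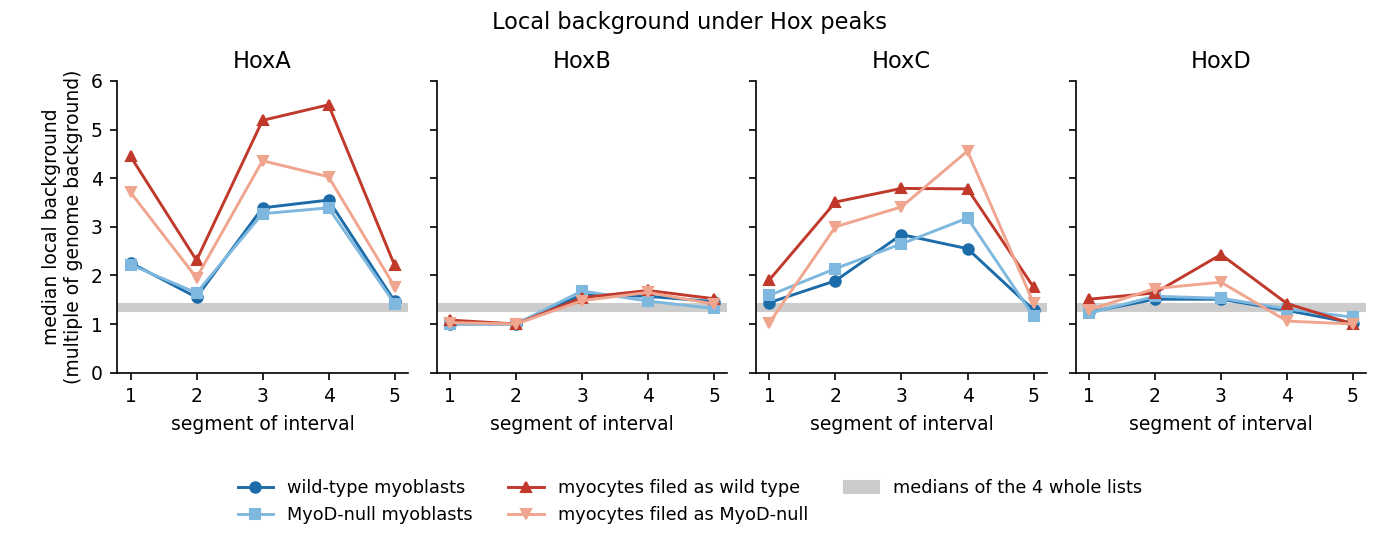
Median local background under the peaks in each of 5 equal segments of a Hox interval (horizontal axis, segment 1 at the low-coordinate end), as a multiple of the genome-wide background of its list, for the 4 lists, with a grey band over the medians of the whole lists. Segments 3 and 4 of HoxA and segments 2 to 4 of HoxC are raised in all lists, most of all in myocytes, while HoxB stays between 1.0 and 1.69.

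Within HoxA the raised background had 2 stretches. In wild-type myoblasts its median was 2.26, 1.55, 3.39, 3.55 and 1.47 in segments 1 to 5. In the myocytes filed as wild type the same segments had 4.45, 2.31, 5.19, 5.51 and 2.21. The other 2 lists followed the same course along the cluster, with 3 to 8 peaks behind each value. Within HoxC the middle was raised and both ends were lower, at 2.84 in segment 3 against 1.44 and 1.29 at the ends in wild-type myoblasts, and at 3.79 against 1.91 and 1.76 in the myocytes filed as wild type. The last of these rests on 1 peak.

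The strongest regions differed in how they behaved across lists. The reads given next are raw. The median region held by all 4 lists had 56, 59, 61 and 56 reads genome-wide, but the genome-wide background was up to 8.54 reads in the myoblasts and down to 5.29 in the myocytes. A comparison between stages can therefore change when reads are divided by that background, and it is given on both scales where intervals are compared. Divided by it, the reads of the median region held by all 4 lists stood at 6.85, 6.91, 11.5 and 8.84. On this scale such regions as a whole were thus higher in the myocytes. In HoxA the highest mean fold, 6.17, was at chr6:52100313-52101133, near the Hoxa2 end. It held 37 reads at the summit in wild-type myoblasts, 50 in MyoD-null myoblasts, 75 in the myocytes filed as wild type and 36 in those filed as MyoD-null, and the folds were 4.14, 5.34, 10.13 and 5.04. The 95% Poisson interval of the count in the myocytes filed as wild type was 59.0 to 94.0. It lay above those of wild-type myoblasts, 26.1 to 51.0, and of the other myocytes, 25.2 to 49.8. It overlapped that of MyoD-null myoblasts, 37.1 to 65.9. These intervals cover counting error only. As multiples of the genome-wide background the first 3 were 11.2 to 17.8, 3.19 to 6.23 and 3.98 to 7.86. That of MyoD-null myoblasts was 4.34 to 7.71. On this scale the interval of the myocytes filed as wild type lay above all the others. The region was named for its mean fold, which includes the 10.13 of the myocytes filed as wild type. Part of the gap between intervals may therefore come from that choice. The region at chr6:52141815-52142536 was even in raw reads, with 83, 79, 85 and 79, but had 10.1, 9.25, 16.1 and 12.5 over the genome-wide background. The region chr6:52122388-52123025 was less even in raw reads, with 63, 79, 94 and 69. The widest HoxA region, chr6:52107810-52109469, spans 1660 bp and held 113, 114, 132 and 113 reads, but it rose over a local background of 2.83 to 4.45 times the genome-wide one and its fold was only 4.57 to 5.43.

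In HoxB the strongest region was chr11:96121522-96122074, with folds of 7.89, 6.71, 7.18 and 7.05. Its reads were 110 and 103 in the myoblast lists and 56 and 66 in the myocyte lists, and the interval of neither myocyte count, 42.3 to 72.7 and 51.0 to 84.0, reached those of the myoblasts, 90.4 to 133 and 84.1 to 125. As multiples of the genome-wide background, a scale on which shared regions as a whole are higher in the myocytes, the intervals were not separate. Those of the myocytes were 8.0 to 13.8 and 8.05 to 13.3 and overlapped those of the myoblasts, 11.1 to 16.3 and 9.84 to 14.6. Relative to the median of all regions in all 4 lists, the reads were 0.48 times as high in wild-type differentiation and 0.666 times without MyoD. The fold stayed level, as the local background was lower in the myocytes too, at 1.31 and 1.34 times the genome-wide one against 1.60 and 1.70. The next regions of HoxB, chr11:96172613-96173322 and chr11:96202988-96203655, had 54 to 78 and 49 to 68 reads. The widest, chr11:96213960-96214916, had 62 and 54 reads in the myoblast lists and 33 and 37 in the myocyte lists.

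In HoxC the region chr15:102750896-102751701, on the Hoxc13 side, had 74 and 77 reads in the myoblast lists and 95 and 104 in the myocyte lists, with folds of 5.88, 5.44, 8.65 and 8.24. The region chr15:102773300-102774126 was also higher in both myocyte lists, with 83, 97, 116 and 106 reads and folds of 5.09, 5.72, 8.35 and 7.28. The widest HoxC region, chr15:102828982-102830590, spans 1609 bp and held 84, 102, 101 and 110 reads over a local background of 3.25 to 4.97 times the genome-wide one, so that its fold was 3.02 to 3.74. The region chr15:102857501-102858733, on the Hoxc4 side, went the other way, with 59, 68, 46 and 47 reads. For the first region named the read intervals of the myoblasts, 58.1 to 92.9 and 60.8 to 96.2, overlapped those of the myocytes, 76.9 to 116 and 85.0 to 126. Over the genome-wide background, a scale on which shared regions as a whole are higher in the myocytes, these intervals did not overlap. They were 7.10 to 11.4 and 7.12 to 11.3 against 14.5 to 21.9 and 13.4 to 19.9. Relative to the median of all shared regions, the reads of this region were 1.21 times as high in wild-type differentiation. Without MyoD they were 1.4 times as high. By fold these values were 1.16 and 1.35.

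In HoxD the region with the highest mean fold, chr2:74553823-74554406, was close to even in raw reads, with 77, 88, 92 and 80. Over the genome-wide background it had 9.41, 10.3, 17.4 and 12.6. The region chr2:74529328-74530191 had 77, 78, 81 and 60 reads, lowest in the myocytes filed as MyoD-null, or 9.41, 9.13, 15.3 and 9.47 over the background. The region chr2:74578416-74579049, on the Hoxd1 side of the gap, was uneven on both scales. It held 37 reads in wild-type myoblasts, 42 in MyoD-null myoblasts, 82 in the myocytes filed as wild type and 34 in those filed as MyoD-null, with folds of 3.61, 3.98, 9.30 and 4.53. Its read interval in the myocytes filed as wild type, 65.2 to 102, lay above those of the other lists, the highest of which ended at 56.8. Over the genome-wide background it was 12.3 to 19.3, and the highest of the others ended at 7.50. This region too was named for a mean fold that includes the 9.30 of that list, so part of the gap may come from the choice. The widest HoxD region, chr2:74535541-74536954, spans 1414 bp and had 83, 76, 75 and 56 reads.

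Of the 129 Hox regions 66 were in all 4 lists, or 51.2% with a 95% Wilson interval of 42.6% to 59.6%, against 45.9% of all regions. The Wilson intervals here and below treat neighbouring regions or peaks as independent and hold no spread between replicates. They are not tests of a difference from the whole lists. HoxA had 19 of 30, HoxB 17 of 34, HoxC 18 of 34 and HoxD 12 of 31. The classes with fewer lists were uneven. Regions held by both myoblast lists alone numbered 15, or 11.6%, against 4.64% of all regions. Those held by the myocytes filed as wild type alone numbered 6, or 4.65%, against 16.3%. Regions of MyoD-null myoblasts and the myocytes filed as MyoD-null alone numbered 7, or 5.43%, against 0.816%. Those of wild-type myoblasts and the myocytes filed as wild type alone numbered 3, or 2.33%, against 1.81%. By the peak names, the myoblasts and myocytes in each of these pairs differ in genotype.

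**Figure D4:**
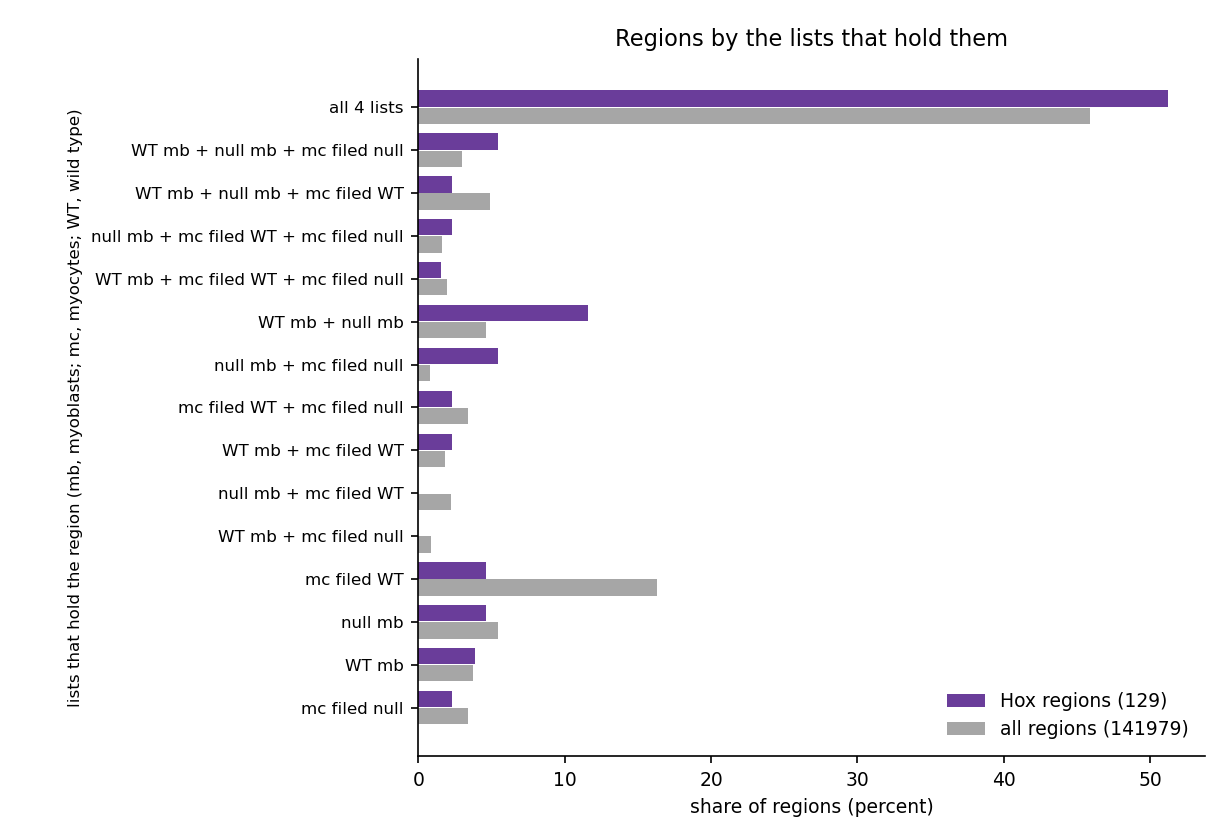
Share in percent (horizontal axis) of the 129 Hox regions and of all 141979 regions held by each combination of lists (vertical axis). The 2 classes that differ most in percentage points below all 4 lists are regions of both myoblast lists alone (11.6% of Hox regions, 4.64% of all) and regions of the myocytes filed as wild type alone (4.65% and 16.3%).

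The 15 regions of both myoblast lists alone fell 7 in HoxB, 4 in HoxD, 3 in HoxC and 1 in HoxA. They were weak, with folds of 2.42 to 4.41 (median 3.04) and 23 to 61 reads (median 34), and the median of such regions in the whole genome was 3.16 and 32 reads. The strongest 2 were in HoxD. The region chr2:74493982-74494546, on the Hoxd13 side, had 37 reads in wild-type myoblasts and 51 in MyoD-null ones, and chr2:74520146-74520619 had 44 and 61. In HoxB, chr11:96112699-96113249 had 33 and 38 reads and chr11:96088866-96089222 had 31 and 30. In HoxC, chr15:102872056-102872373 had 34 and 41. With regions rebuilt from lists of equal length, 8 of 117 Hox regions (6.84%) were in this class, against 4.47% of all, and at a fold of at least 5 there were 0.

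Other regions absent from at least 1 list were named where their fold was highest in the cluster, and they held 23 to 73 reads. In HoxD chr2:74485614-74486359 had 28 and 29 reads in the myoblast lists and 35 in the myocytes filed as wild type, and was not listed in those filed as MyoD-null. In HoxA chr6:52118569-52119029 had 36, 49 and 73 reads in the same 3 lists. The region chr6:52115762-52116160 had 49, 37 and 28 reads in the lists other than the myocytes filed as wild type. The region chr6:52210688-52211101, with 39 and 47 reads, was held by the myocyte lists alone. In HoxB chr11:96093718-96094039 was in the myocytes filed as wild type alone, with 26 reads. In HoxC chr15:102752420-102752753 had 39, 44 and 50 reads in the first 3 lists, and chr15:102740669-102741524 had 25, 23 and 26 in the lists other than MyoD-null myoblasts.

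The first comparison the design implies is wild-type differentiation, the myocytes filed as wild type against wild-type myoblasts. Of the 86 Hox peaks in these myocytes 12 had no overlap in the myoblasts, or 14.0% (8.17% to 22.8%), against 30.0% over the whole list. In the other direction 28 of 104 Hox peaks of the myoblasts had none in the myocytes, or 26.9% (19.3% to 36.2%), against 18.0%. In Hox clusters the myoblast side therefore held the larger share, where over the genome the myocyte side did. The myocyte list is the longer, with 112030 peaks against 98097, which bears on the whole-list shares. With lists of equal length the Hox counts were 11 in the myocytes and 26 in the myoblasts. The whole-list shares at that length were not computed. The 28 were 10 in HoxB, 8 in HoxD, 6 in HoxC and 4 in HoxA, whereas the 12 were 3 in each cluster. Restricted to peaks with at least 5-fold enrichment, the 2 counts were 23 and 0. Only 7 Hox peaks of the myoblasts pass that limit and folds are higher throughout the myocyte list, so these counts do not bear on the direction.

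The 66 Hox regions in all 4 lists allow the same sites to be compared. Each log2 ratio was centred on the median of all 65178 such regions, which for fold was 0.34 toward these myocytes, and a ratio of at least 1.5 times either way was counted. In wild-type differentiation the Hox median was -0.12 after centring and 0.23 without it. There were 4 Hox regions higher in the myocytes, against 6.81% of all regions, and 4 higher in the myoblasts, against 4.77%. By reads at the summit, a measure chosen after seeing the data, the Hox median was -0.03, with 2 regions higher in the myocytes (9.77% of all), the HoxD region at chr2:74578416-74579049 and the HoxA region at chr6:52100313-52101133, and 6 higher in the myoblasts (10.6% of all). The largest ratio toward the myocytes was at chr2:74578416-74579049, with 1.02 by fold and 1.06 by reads. The HoxD region chr2:74542639-74543500 had the largest ratio by fold toward the myoblasts, -0.82, with 47 reads in wild-type myoblasts and 37 in these myocytes.

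The second comparison is differentiation without MyoD, the myocytes filed as MyoD-null against MyoD-null myoblasts. Of 92 Hox peaks in these myocytes 8 had no overlap in the myoblasts, or 8.70% (4.47% to 16.2%), against 16.2% over the whole list. Of 109 Hox peaks in the myoblasts 24 had none in the myocytes, or 22.0% (15.3% to 30.7%), against 24.7%. These 24 were 8 in HoxB, 8 in HoxD, 4 in HoxA and 4 in HoxC. The 8 became 20 and the 24 became 15 with lists of equal length, so this order rests on the shorter myocyte list. Whole-list shares at equal length were not computed. At shared regions the centred Hox median by fold was -0.17, with 53 of 66 below 0, and 0.00 without centring. The largest ratio toward the myocytes, 0.49, was at chr2:74587300-74588277 in HoxD, with 41 reads in the myoblasts and 40 in the myocytes. There were 0 regions higher in the myocytes (3.51% of all regions) and 3 higher in the myoblasts (2.74%). By reads the median was -0.18, with 1 region higher in the myocytes (4.50%) and 8 higher in the myoblasts (9.12%).

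HoxB had the lowest median of the 4 clusters by reads in both comparisons, a difference for which there is no test. These ratios are relative to all shared regions, so a uniform difference in depth between lists drops out of them. The HoxB median log2 ratio was -0.36 in wild-type differentiation, with 13 of 17 regions below 0. Of the 17, 5 were past 1.5 times toward the myoblasts, against 10.6% of all regions. In differentiation without MyoD it was -0.47, with 15 of 17 below 0 and 6 past 1.5 times, against 9.12% of all. HoxA had 0.01 and -0.13, HoxC -0.06 and -0.02, and HoxD -0.02 and -0.24. By fold HoxB had the highest of the 4 medians in wild-type differentiation, at -0.02, and the lowest in the other, at -0.28. The HoxB regions with the largest ratios were chr11:96121522-96122074, described above, with -1.06 by reads in wild-type differentiation, and chr11:96096217-96096672, with 48 reads in MyoD-null myoblasts and 25 in the myocytes filed as MyoD-null. The reading by peak names pairs the same 4 lists again, and by reads it gave HoxB -0.49 and -0.43, since both myocyte lists were lower there. By fold HoxB was then lowest in wild-type differentiation, at -0.26. In the other it was not, at -0.13, where HoxC had -0.27.

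**Figure D5:**
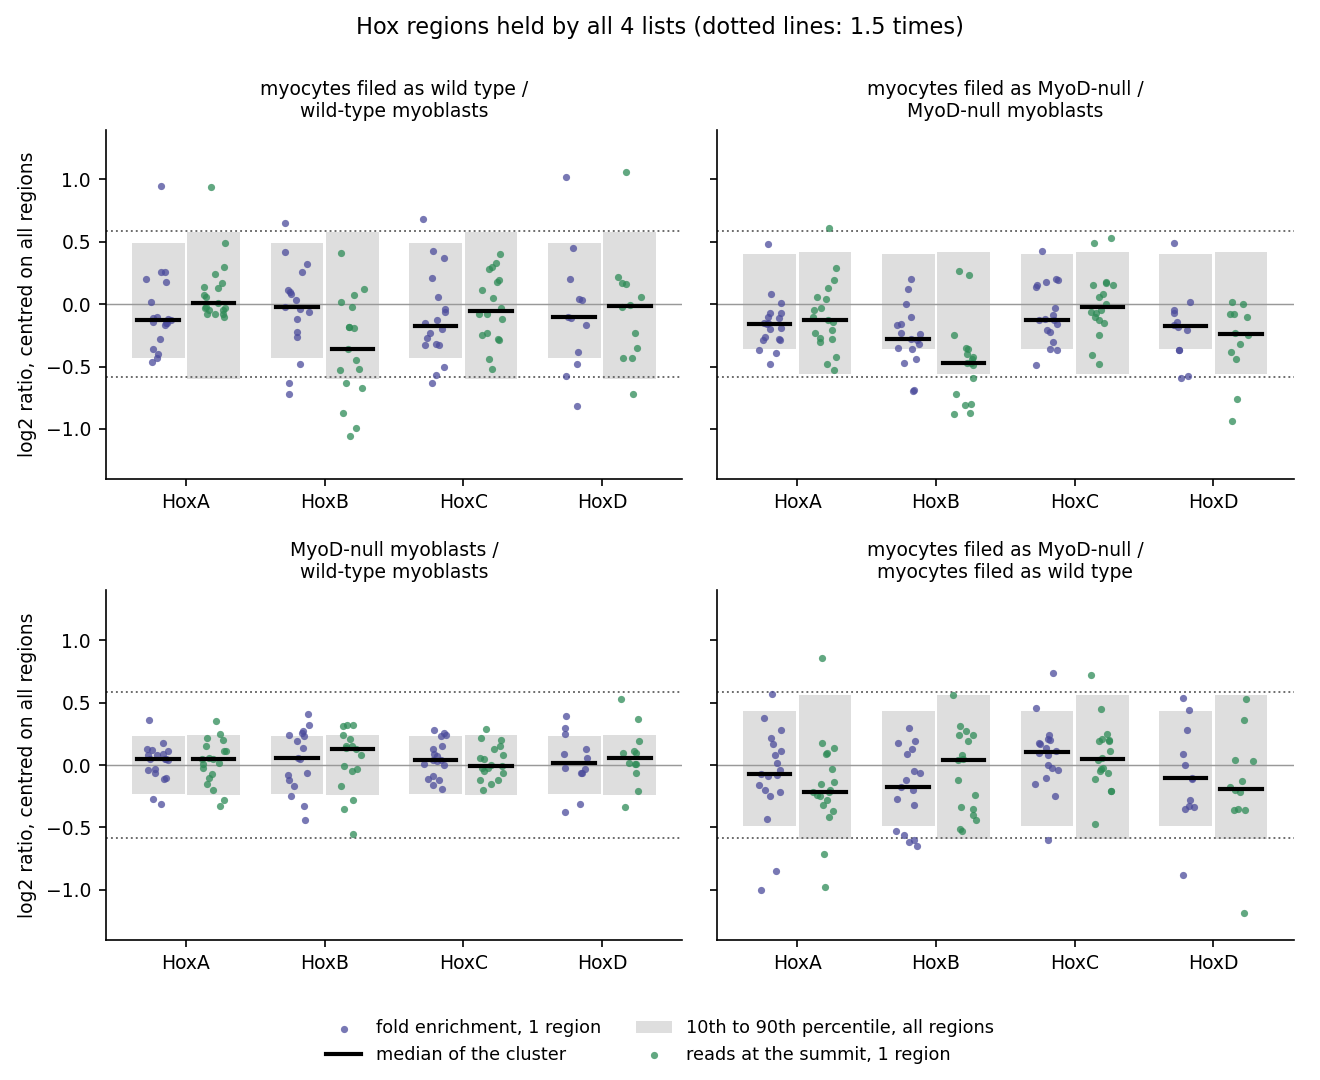
Log2 ratio between lists (vertical axis), centred on the median of all 65178 regions, at the 66 Hox regions in all 4 lists, by cluster, for fold enrichment (blue) and reads at the summit (green), with the cluster median as a bar and the 10th to 90th percentile of all regions in grey. HoxB lies low by reads in both upper panels (medians -0.36 and -0.47), and no point passes 1.5 times between the 2 myoblast lists.

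The third comparison, MyoD loss in myoblasts, took no shared Hox region past 1.5 times. Of 109 Hox peaks in MyoD-null myoblasts 16 had no overlap in wild-type myoblasts, or 14.7% (9.24% to 22.5%), against 14.8% over the list. Of 104 in wild-type myoblasts 10 had none in MyoD-null myoblasts, or 9.62% (5.31% to 16.8%), against 12.8%. The unshared peaks were weak, with no fold above 3.04. At shared regions the Hox median was 0.05 by fold, and 0 of 66 regions were higher in MyoD-null myoblasts (0.250% of all regions) and 0 higher in wild-type myoblasts (0.262%). By reads it was 0.05 as well, again with 0 (0.387%) and 0 (0.420%). Such calls are rare across the genome, so 0 of 66 is near the background. The region with the largest ratios, chr11:96181221-96181604 in HoxB, had 43 reads in wild-type myoblasts and 31 in MyoD-null ones, with intervals of 31.1 to 57.9 and 21.1 to 44.0 that overlapped. Its neighbour chr11:96179776-96180243 had 34 and 45 reads, in the opposite direction. By reads the largest ratio toward MyoD-null myoblasts was at chr2:74600730-74601664 on the Hoxd1 side, with 42 and 64.

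The fourth comparison sets the 2 myocyte lists against each other, and its direction depends on which genotype each holds. Of 92 Hox peaks in the myocytes filed as MyoD-null 17 had no overlap in those filed as wild type, or 18.5% (11.9% to 27.6%), against 13.1% over the list. Of 86 in the myocytes filed as wild type 12 had none in those filed as MyoD-null, or 14.0% (8.17% to 22.8%), against 32.0%. The large surplus of peaks in the list filed as wild type was thus not seen in the Hox intervals. With lists of equal length the 17 became 27, and at a fold of at least 5 the counts were 1 and 20. Shares over the cut lists were not computed, so these counts are not set against all peaks.

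At shared regions in the myocytes the Hox median by fold was -0.05, with the list filed as MyoD-null over the other. There was 1 region higher in that list (5.05% of all) and 7 higher in the list filed as wild type (6.95%). Of those 7, 3 were in HoxB, 2 in HoxA, 1 in HoxC and 1 in HoxD. By reads 2 were higher in the list filed as MyoD-null (9.18%) and 3 in that filed as wild type (10.1%). The largest ratio by fold, -1.0, was at chr6:52147244-52147629 in HoxA, with 38 reads in the list filed as wild type and 22 in the other, and 38 and 32 in the myoblasts. The region chr6:52134711-52135672, 45.2 kb into HoxA, had the opposite order, with 46 and 79 reads, and 46 and 54 in the myoblasts. In HoxC chr15:102832516-102832986 had 64 reads in the list filed as wild type and 100 in the other, and 74 and 72 in the myoblasts.

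Read by the genotype in the peak names, wild-type differentiation sets the myocytes filed as MyoD-null against wild-type myoblasts. Then 17 of 92 Hox peaks of the myocytes had no overlap (18.5%, list 15.5%) and 27 of 104 of the myoblasts (26.0%, list 22.3%). Differentiation without MyoD then sets the myocytes filed as wild type against MyoD-null myoblasts, with 14 of 86 (16.3%, list 30.0%) and 36 of 109 (33.0%, list 19.8%). Under either reading, in the lists as deposited, more Hox peaks of the myoblasts than of the myocytes were unshared. The list filed as wild type had a low share of unshared Hox peaks against either set of myoblasts.

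The place of the summit varied between lists, which is described here without a test. Across the 4 lists the summits of the strongest peak of a region lay within a range whose median was 114 bp for the 66 Hox regions and 91 bp for all 65178. The range was 50 bp or less in 12 Hox regions, against 15152 of all, and more than 250 bp in 14, against 7063 of all. By cluster the median was 163 bp in HoxA, 115 bp in HoxB, 108.5 bp in HoxC and 80 bp in HoxD, so HoxD was below the genome's median. HoxA held the largest, 751 bp. In chr6:52134711-52135672 the summits lay 513 bp apart, so its reads in the 4 lists come from different parts of the region. In chr11:96213960-96214916, the widest HoxB region, they lay 433 bp apart.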

How the data were processed

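ATAC-seq peaks of 12 samples in 4 groups were used, as 1 deposited list for each group. The submitters' processing notes name mm9, MACS2 and deepTools, with no version. Peak names point to merged alignments with a mapping-quality tag. The aligner, read shifting and peak settings were not given in the sources used here. The deposited fold enrichment was taken as the ratio of summit pileup to local background, with the same small constant added to each. The deposited −log10 p and −log10 q are per peak, and the lowest −log10 q was 2.02 to 2.04, which fits a limit of 0.01. The deposited summit offset places the summit, and the deposited score was not used.

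The 2 or 3 peaks per list outside chromosomes 1 to 19, X and Y were left out. Reads at the summit and local background were recovered as the whole number of reads that gives both the deposited fold and the Poisson −log10 p, within 0.01 for 100% of peaks. Peaks were shared at an overlap of 1 bp or more, and overlapping peaks of the 4 lists were joined into regions. A region's value in a list was that of its strongest peak. Shares carry 95% Wilson intervals and reads exact 95% Poisson intervals. Neither covers the spread between replicates, and the Wilson intervals treat neighbouring peaks or regions as independent. The steps recovered 6 of 6 known quantities within 1% on 20000 simulated peaks. The tools were scipy 1.17.1, pandas 2.3.3, numpy 2.4.6 and matplotlib 3.10.9 under Python 3.11.15.

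Regions were named by rule: per cluster the 3 with the highest mean fold, the widest, and up to 3 with the highest fold among those missing from a list, and per comparison the largest centred ratio in each direction. The stretches without a peak, the 2 strongest regions of both myoblast lists alone and the members named for promoter composition were chosen after their values were seen. The members and lists were chosen with earlier results of these data known. Alternatives were stricter q or fold limits, lists of equal length, genotype from peak names, wider intervals, other overlap rules, a 2-fold call, mean fold and no centring. Summit reads were added after seeing the data.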

Additional observations from a re-analysis of the deposited data

How the results depend on the processing

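Of 230 recomputations of 42 values under 12 alternatives, 166 were labelled the same, 63 moved and 1 reversed. Some of those labelled the same could not differ. Genotype from peak names leaves every value of the myoblast lists alone unchanged, and the shortest list already has the equal length. Counts were the same within 1.5 times, median log2 ratios within 0.1, and shares within the Wilson interval of the main value. A median was labelled reversed only if its main value was beyond 0.1. Smaller changes of sign are thus among the same, such as -0.05 to 0.05 between the myocyte lists by peak names. Widening each interval by 20 kb and counting any overlap with it moved none. The one reversal was the median log2 fold ratio in wild-type differentiation, 0.23 without centring against -0.12, because the whole myocyte list has higher folds. Without centring the median was -0.20 between the myocyte lists and 0.00 in differentiation without MyoD. The calls then became 12 and 0 in wild-type differentiation (4 and 4 centred, myocytes first), 3 and 0 without MyoD (0 and 3), and 0 toward the list filed as MyoD-null between myocytes (1).

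At a fold of at least 5 all 30 values moved, and the counts are small. Hox peaks were then 7, 11, 30 and 11 in wild-type myoblasts, MyoD-null myoblasts, the myocytes filed as wild type and those filed as MyoD-null. Unshared peaks were 23 and 0 in wild-type differentiation, 3 and 3 without MyoD, 5 and 1 for MyoD loss in myoblasts, and 1 and 20 between the myocyte lists. The share of Hox regions in all 4 lists was 19.4%, and 0 were in both myoblast lists alone. With a 2-fold call there were 1 and 0 regions in wild-type differentiation, 0 higher in MyoD-null myoblasts without MyoD, and 0 and 1 between myocytes.

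With lists of equal length, unshared peaks without MyoD were 20 and 15 (8 and 24 as deposited), those of the myocytes filed as MyoD-null against the other myocytes 27 (17), and regions in both myoblast lists alone 8 (15). By peak names, unshared myocyte peaks without MyoD were 14 (8), calls in wild-type differentiation 2 and 1, those toward the myocytes without MyoD 4, and those between myocytes 7 and 1 exchanged. At q of 1e-05 or lower the 17 became 11. Requiring 50% reciprocal overlap gave 21 unshared myocyte peaks in wild-type differentiation and 18 without MyoD (12 and 8), and summits within 250 bp gave 20 and 16. With the mean fold, 1 region was higher in the myocytes without MyoD. By summit reads, a choice made after seeing the data, calls were 2 toward the myocytes in wild-type differentiation, 1 and 8 without MyoD, and 2 and 3 between myocytes. The cause of these shifts was not tested. Shares of unshared peaks over the whole lists were not computed for stricter limits, equal lengths or other overlap rules.

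No paired analysis was possible because peaks were called on merged samples and the lists hold no value per replicate, and leaving out a replicate was not possible for the same reason. The depth of the 4 lists differs, and so does the local background within the clusters, which reaches 7.45 times the genome-wide one. The number of reads a single Hox site needs to be listed is not known, and a missing peak does not show closed chromatin.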

Other observations

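Regions whose fold changed in opposite directions past 1.5 times in the 2 genotypes on differentiation numbered 0 of the 66 Hox regions and 235 of all 65178 regions in all 4 lists. This difference between genotypes was not tested, since there is 1 list for each group.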
